A study of Mus musculus with 3 samples.

Results

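The 10 genes that are read as signs of the switch from an epithelial to a mesenchymal state were followed across the germ layers of the gastrulating mouse embryo. They were chosen by gene symbol as known players of this switch, with earlier results of these data known, and they are *Cdh1*, *Epcam*, *Cdh2*, *Cdh11*, *Vim*, *Snai1*, *Snai2*, *Twist1*, *Zeb1* and *Zeb2*. In all 17633 genes had at least 1 read somewhere, and each of these 10 had reads in all 3 libraries. The study asked how transcripts differ between the endoderm, the mesoderm and the epiblast of ICR mouse embryos at E7.5, with no treatment in the labels. Each layer was sequenced as 1 RNA-seq library of RNA combined from a large number of embryos. The embryonic region was loosened with trypsin and pancreatin and the layers were parted by hand with glass needles, and the epiblast fraction holds the neuroectoderm and the primitive streak. The library is therefore the unit of every value below, and no difference has a replicate check.

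Gastrulation is the textbook case of an epithelial to mesenchymal transition. Epiblast cells sit in a sheet held together by E-cadherin, leave it at the primitive streak, and spread as loose mesoderm cells or enter the endoderm, which is again a sheet. Snail, Zeb and Twist proteins are transcription factors known for repressing epithelial genes, and the Snail and Zeb zinc fingers bind the E-box CAGGTG, which reads CACCTG on the other strand. Cadherins are calcium-dependent adhesion proteins, and a change from E-cadherin to N-cadherin is a common mark of the transition.

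The promoters that hold this E-box are shown first, because it is the known target of the repressors among the genes. RefSeq windows of GRCm38.p6 were found for 5 of the 10 genes, namely *Epcam*, *Vim*, *Snai1*, *Twist1* and *Zeb2*, and not for *Cdh1*, *Cdh2*, *Cdh11*, *Snai2* and *Zeb1*. The 250 bases before the start of transcription were searched on both strands. The window of *Epcam*, chr17:87635729-87635978 on the plus strand, held the E-box at 2 places, whose first bases lie 187 and 19 bases before the start. The window of *Snai1*, chr2:167537945-167538194 on the plus strand, held it once, 126 bases before the start. Both are printed 5′ to 3′ on the strand of the gene, with the E-box in capitals.
Epcam: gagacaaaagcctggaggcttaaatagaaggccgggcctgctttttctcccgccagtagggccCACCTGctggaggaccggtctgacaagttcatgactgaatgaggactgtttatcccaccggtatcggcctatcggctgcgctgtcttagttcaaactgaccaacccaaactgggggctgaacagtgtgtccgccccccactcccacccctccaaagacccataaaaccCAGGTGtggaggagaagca
Snai1: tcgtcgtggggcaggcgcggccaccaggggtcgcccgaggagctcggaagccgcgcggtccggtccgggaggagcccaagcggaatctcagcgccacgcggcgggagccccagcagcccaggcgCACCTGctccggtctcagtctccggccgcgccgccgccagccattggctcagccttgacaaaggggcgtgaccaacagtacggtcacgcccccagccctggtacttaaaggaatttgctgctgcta
The windows of *Vim*, *Twist1* and *Zeb2* held none, and the looser form CANNTG, which contains the first motif, was met only at the same places. Among all 32851 promoter windows of this length, 17.2% held CAGGTG or CACCTG, 2.06% held it at least 2 times, and 66.2% held any CANNTG. A match is a description of these letters and no evidence of binding.

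The libraries held 41.7, 40.8 and 42.7 M reads on genes in endoderm, mesoderm and epiblast, and the median listed gene had 576, 536 and 536 reads. Values are RPKM, the reads of a gene per kilobase of its length and scaled to the reads of the library. Intervals are 95% exact intervals of the counted reads and cover counting error only. A gene was called differentially expressed between 2 libraries with the study's 3 criteria: RPKM>5 in either library, Fold Change>2 and FDR<0.001, the FDR coming from Audic and Claverie's exact test of the read counts with Benjamini-Hochberg adjustment over all genes. This test includes only counting noise, so that a call compares 2 libraries and not the germ layers as conditions. The 3 pairs share their libraries and are not independent of each other.

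The germ layer labels were checked with marker genes. All 5 epiblast, 6 mesoderm, 4 embryonic endoderm and 5 visceral endoderm markers were highest in the library of their own layer. The markers were chosen with earlier results of these data known, so this is no independent check of the labels. The endoderm library carried a strong visceral endoderm signature (summed RPKM 4573, against 2.86 in mesoderm and 1.82 in epiblast), so the library labelled endoderm holds RNA of that tissue. In the mesoderm library the epiblast markers stood at a median of 3.10% of their epiblast RPKM, from 0.656% for *Utf1* to 23.1% for *Pou5f1*, and in endoderm at a median of 7.04% (1.44% for *Sox2* to 17.2% for *Dnmt3b*). Embryonic endoderm markers kept a median of 2.85% of their endoderm level in mesoderm (1.71% for *Trh* to 34.4% for *Cer1*) and of 3.34% in epiblast (0.478% for *Cer1* to 8.32% for *Trh*). Mesoderm markers stood at a median of 1.89% of their mesoderm RPKM in endoderm (0.451% for *Hand1* to 18.1% for *Pdgfra*) and of 14.4% in epiblast (1.89% for *Kdr* to 88.2% for *Tbx6*). The primitive streak markers, all highest in epiblast, stood at a median of 45.0% of that level in mesoderm and 27.0% in endoderm. In tissue of this kind, fewer cells of a type and less RNA per cell cannot be told apart.

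The 10 genes separated the mesoderm library from both others. *Cdh1* and *Epcam* were lowest in mesoderm and similarly high in the other two layers, and the other 8 genes were highest in mesoderm. Epiblast was the intermediate library for 9 of the 10 genes and was highest for 0. Endoderm was the lowest library for 7 genes, and *Twist1* alone was lowest in epiblast. This order of the deposited RPKM includes small steps. Endoderm and epiblast differed by 1.16-fold for *Cdh1*, 1.18-fold for *Epcam* and 1.04-fold for *Cdh2*, none of them called. For *Cdh2* the step was within counting error and its direction turned under some other scalings.

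**Figure D1:**
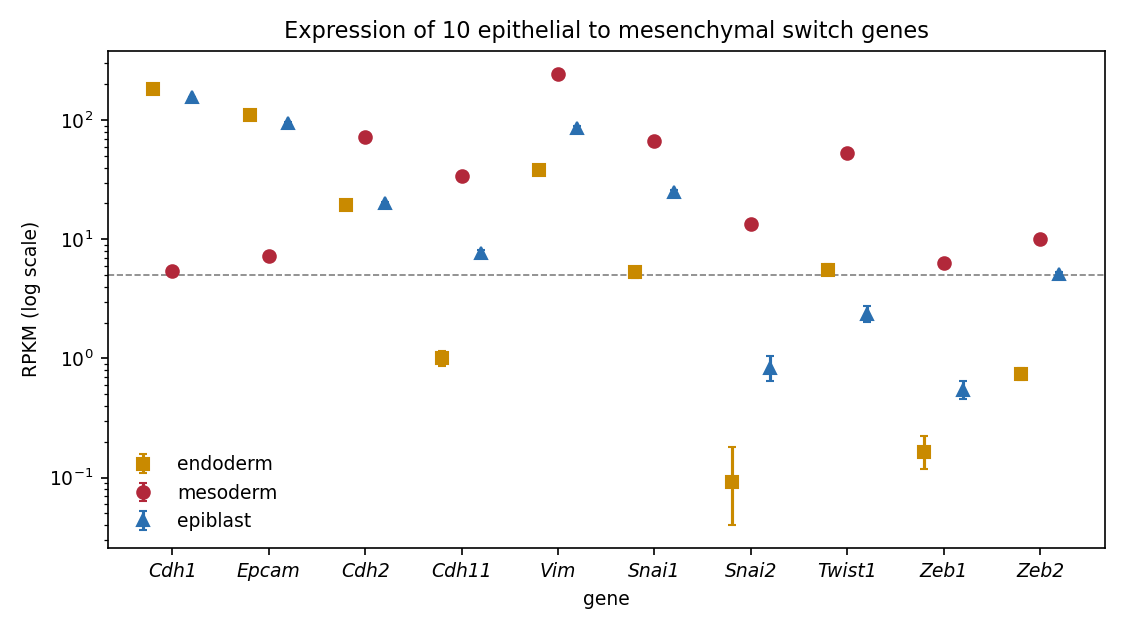
RPKM of the 10 genes on a log axis in endoderm (squares), mesoderm (circles) and epiblast (triangles), 1 library each, with 95% exact Poisson intervals of the reads as bars, many of them smaller than the symbols, and a dashed line at RPKM 5. The circles lie at the bottom for *Cdh1* (5.44) and *Epcam* (7.22) and at the top for the other 8 genes.

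Between endoderm and mesoderm all 10 genes were called, 2 for endoderm and 8 for mesoderm as the higher library. For comparison, 23% of the 8867 genes with RPKM>5 in either library were called, 14.4% higher in endoderm and 8.56% in mesoderm. Between mesoderm and epiblast 9 of the 10 were called, 7 higher in mesoderm and 2 higher in epiblast, against 10.3% of 8340 genes (5.3% higher in mesoderm, 5.02% in epiblast). Between endoderm and epiblast 8 of the 10 reached RPKM>5 and 5 were called, 1 higher in endoderm and 4 higher in epiblast, against 24.6% of 8843 genes (15.7% higher in endoderm, 8.94% in epiblast). The median size of the log2 ratio over the 10 genes was 3.86, 2.83 and 1.48 in these pairs, in the same order, and over all genes it was 0.45, 0.22 and 0.51. The genes were picked as known players of this transition, so these shares describe the chosen genes and are no test of a set. *Cdh11*, *Vim*, *Snai1* and *Twist1* were called in all 3 pairs and the other 6 in 2. With edgeR's exact test and an assumed biological coefficient of variation of 0.4, in place of counting noise alone, 5 of the 10 were called between endoderm and mesoderm, 2 between mesoderm and epiblast (*Cdh1* and *Twist1*) and 0 between endoderm and epiblast.

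**Figure D2:**
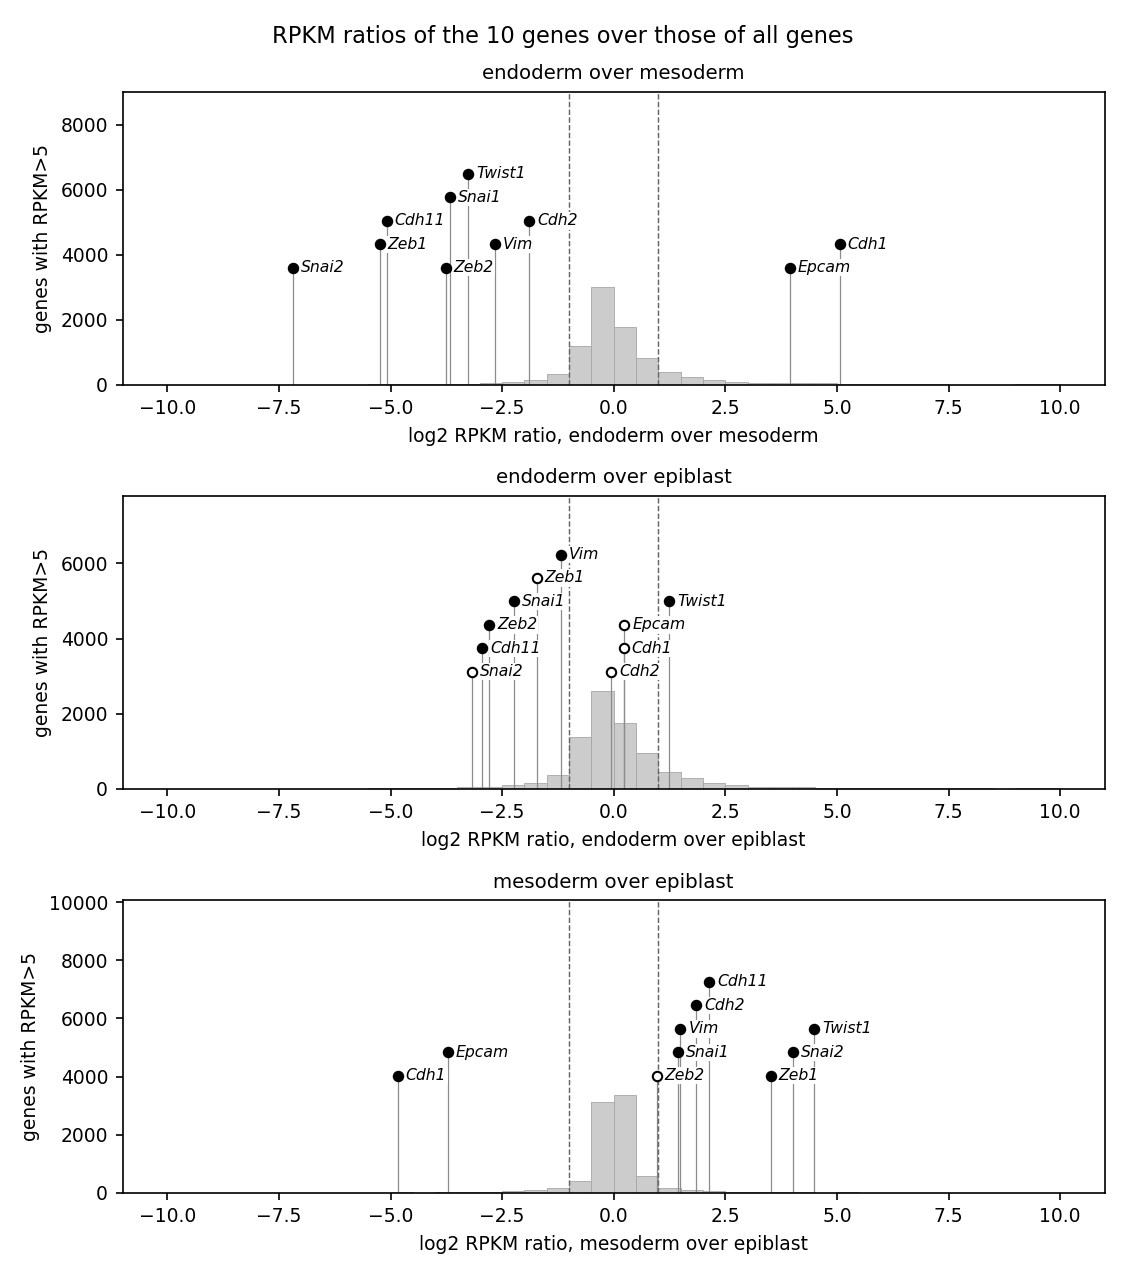
Histograms of the log2 RPKM ratio of all genes with RPKM>5 in either library (grey, genes per bin of 0.5) in the 3 pairs of libraries, with the 10 genes as stems whose heights only separate the labels. Filled heads were called, open heads were not, and dashed lines mark Fold Change 2. Most of the 10 genes stand in the tails of the upper and lower panels, while *Cdh1*, *Epcam* and *Cdh2* stand near 0 in the middle panel.

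*Cdh1* (chr8:106603351-106670246, plus strand, GRCm38) encodes E-cadherin, the adhesion protein of epithelial adherens junctions. Its RPKM was 181 in endoderm (33299 reads), 5.44 in mesoderm (980 reads) and 156 in epiblast (29316 reads). Endoderm and epiblast were both high and mesoderm alone was low, with reads still spread over 96.3% of the gene length there. The fold was 33.3 (95% interval 31.3 to 35.5) between endoderm and mesoderm and 28.6 (26.8 to 30.5) between epiblast and mesoderm. By the size of its log2 ratio *Cdh1* ranked 40 of 8340 genes between mesoderm and epiblast. Endoderm exceeded epiblast by 1.16-fold (1.15 to 1.18), larger than counting error and below the Fold Change criterion. In mesoderm *Cdh1* stood at 3.49% of its epiblast RPKM, close to the median of 3.10% for the epiblast markers in that library, and the part of epiblast cells in the mesoderm fraction was not tested.

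*Epcam* (chr17:87635979-87651129, plus strand), the gene with 2 E-boxes in the window printed above, encodes an epithelial surface glycoprotein that takes part in cell contacts. It had an RPKM of 112 in endoderm (9580 reads), 7.22 in mesoderm (608 reads) and 94.7 in epiblast (8336 reads). The pattern was that of *Cdh1*, with mesoderm alone low. The folds over mesoderm were 15.5 (14.2 to 16.8) for endoderm and 13.1 (12.1 to 14.3) for epiblast. In mesoderm *Epcam* kept 7.62% of its epiblast RPKM against 3.49% for *Cdh1*. Within the mesoderm library *Epcam* was therefore the higher of the 2 per length, with a *Cdh1* to *Epcam* ratio of 0.753 (0.680 to 0.834), while *Cdh1* was the higher in endoderm (1.62, 1.59 to 1.66) and in epiblast (1.64, 1.60 to 1.68).

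*Cdh2* (chr18:16588877-16809246, minus strand) encodes N-cadherin, the cadherin of mesoderm and neural tissue. Its RPKM was 19.4 in endoderm (3745 reads), 71.8 in mesoderm (13634 reads) and 20.03 in epiblast (3975 reads). Mesoderm stood above the other libraries by 3.71-fold over endoderm (3.58 to 3.85) and 3.59-fold over epiblast (3.46 to 3.72). Endoderm and epiblast did not differ beyond counting error (1.04-fold higher in epiblast, 0.990 to 1.08), and the direction of this small difference turned under 3 of the 4 other scalings. *Cdh2* had the smallest fold of the 10 genes between endoderm and mesoderm.

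*Cdh11* (chr8:102632095-102785642, minus strand) encodes cadherin 11, found in loosely packed mesenchyme. Its RPKM was 1.002 in endoderm (176 reads), 34.0 in mesoderm (5862 reads) and 7.70 in epiblast (1386 reads). In contrast to *Cdh2* the 3 layers were all apart. Mesoderm was 34.0-fold above endoderm (29.2 to 39.7) and 4.42-fold above epiblast (4.17 to 4.69), and epiblast was 7.68-fold above endoderm (6.56 to 9.04).

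*Vim* (chr2:13573927-13582826, plus strand) encodes vimentin, the intermediate filament protein of mesenchymal cells. With an RPKM of 244 in mesoderm (18276 reads) it was the highest of the 10 genes there and ranked 276 among all genes of that library. It was also well expressed in epiblast (86.7, 6790 reads) and in endoderm (38.4, 2930 reads). The steps between layers were 6.36-fold from endoderm to mesoderm (6.12 to 6.62), 2.81-fold from epiblast to mesoderm (2.74 to 2.89) and 2.26-fold from endoderm to epiblast (2.16 to 2.36). In the epiblast *Vim* was thus found beside high *Cdh1* and *Epcam*.

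Ratios and shares of these genes within a library, compared per length, showed the layers without any scaling between libraries. *Cdh1* exceeded *Cdh2* 9.36-fold in endoderm (9.05 to 9.69) and 7.76-fold in epiblast (7.51 to 8.03), whereas in mesoderm *Cdh2* exceeded *Cdh1* 13.2-fold (12.4 to 14.1). *Cdh1* made up 89.9%, 4.88% and 84.9% of the summed RPKM of *Cdh1*, *Cdh2* and *Cdh11* in endoderm, mesoderm and epiblast. The sum itself, which does depend on the scaling between libraries, was 202, 111 and 183. By RPKM the mesoderm library therefore held less cadherin RNA of these 3 genes and a different composition of it. *Cdh11* made up 30.6% of the sum in mesoderm, 4.2% in epiblast and 0.497% in endoderm. *Epcam* exceeded *Vim* 2.91-fold in endoderm (2.79 to 3.03), both were close in epiblast (1.09, 1.06 to 1.13), and *Vim* exceeded *Epcam* 33.8-fold in mesoderm (31.2 to 36.7).

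**Figure D3:**
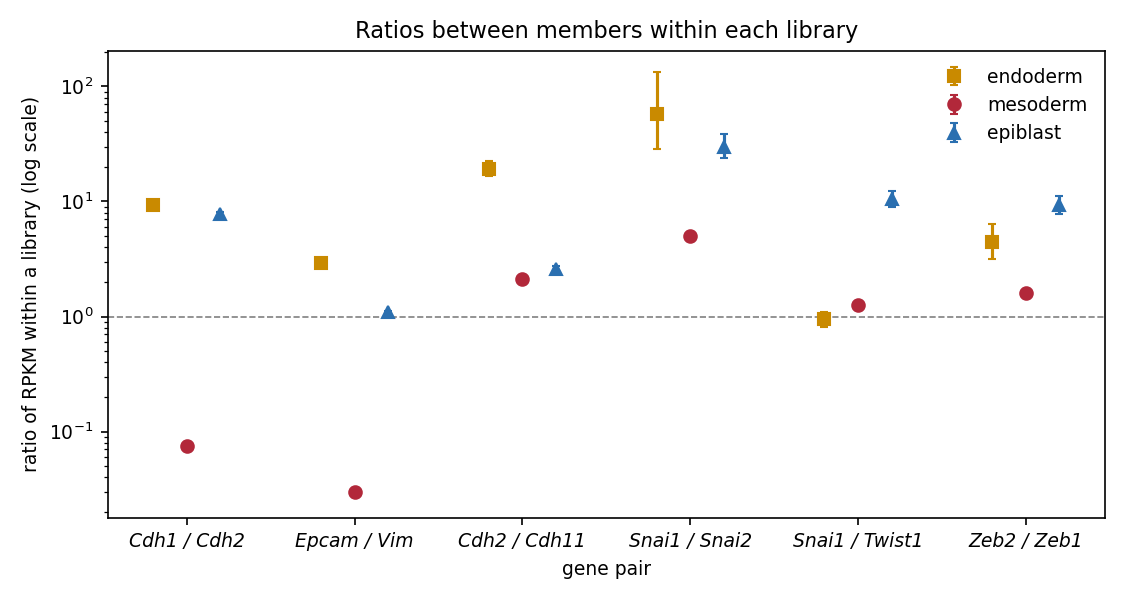
Ratio of the RPKM of 2 genes within each library, on a log axis, for 6 gene pairs in endoderm (squares), mesoderm (circles) and epiblast (triangles), with 95% exact intervals of the reads as bars and a dashed line at equal levels. For *Cdh1* to *Cdh2* and *Epcam* to *Vim* the circle alone lies below the line, and for *Snai1* to *Twist1* the triangle alone lies far above it.

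The transcription factors differed between layers in level and in which of them prevailed. *Snai1* (chr2:167538195-167542814, plus strand) encodes Snail, a repressor of *Cdh1* needed for gastrulation, and its window above holds 1 E-box. Its RPKM was 5.27 in endoderm (354 reads), 67.3 in mesoderm (4436 reads) and 24.9 in epiblast (1713 reads). Mesoderm was highest and epiblast stood clearly above endoderm. The folds were 12.8 for mesoderm over endoderm (11.5 to 14.3), 2.71 for mesoderm over epiblast (2.56 to 2.86) and 4.72 for epiblast over endoderm (4.21 to 5.31). *Snai1* stood in epiblast at 36.9% of its mesoderm RPKM, above the median of 14.4% of the mesoderm markers and within their range, and the part of the streak cells in that fraction was not tested.

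*Snai2* (chr16:14705852-14709385, plus strand) encodes Slug, the paralogous repressor. Its RPKM was 0.0922 in endoderm on 8 reads, 13.4 in mesoderm on 1137 reads and 0.831 in epiblast on 74 reads. Most of the *Snai2* signal was in the mesoderm library, and the 8 endoderm reads covered 25.4% of the gene length. The folds were 145 for mesoderm over endoderm, with a wide interval of 73.3 to 336, and 16.1 for mesoderm over epiblast (12.7 to 20.6). Neither endoderm nor epiblast reached RPKM 5, so that pair could not be called. *Snai1* exceeded *Snai2* in every library, 57.2-fold in endoderm (28.7 to 133), 5.04-fold in mesoderm (4.72 to 5.38) and 29.9-fold in epiblast (23.7 to 38.3).

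*Twist1* (chr12:33957671-33959829, plus strand) encodes a bHLH factor of cranial and other mesoderm. Its RPKM was 5.57 in endoderm (386 reads), 53.2 in mesoderm (3620 reads) and 2.36 in epiblast (168 reads). It was the exception among the mesodermal genes, since epiblast and not endoderm was lowest. Mesoderm exceeded endoderm 9.56-fold (8.61 to 10.6) and epiblast 22.5-fold (19.3 to 26.5), and endoderm exceeded epiblast 2.36-fold (1.96 to 2.84). The *Snai1* to *Twist1* ratio followed from this. It was close to equal in endoderm (0.947, 0.817 to 1.10) and mesoderm (1.26, 1.21 to 1.32), and 10.5 (8.98 to 12.4) in epiblast.

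*Zeb1* (chr18:5591860-5775467, plus strand) and *Zeb2* (chr2:44983632-45117395, minus strand) encode large zinc finger and homeodomain repressors of epithelial genes. *Zeb1* had an RPKM of 0.165 in endoderm (40 reads), 6.27 in mesoderm (1487 reads) and 0.549 in epiblast (136 reads). Like *Snai2* it was low outside mesoderm, which exceeded endoderm 37.9-fold (27.7 to 53.3) and epiblast 11.4-fold (9.58 to 13.7). *Zeb2* had an RPKM of 0.738 in endoderm (280 reads), 10.004 in mesoderm (3724 reads) and 5.13 in epiblast (1996 reads). Here only endoderm was low, 13.6-fold below mesoderm (12.0 to 15.4) and 6.95-fold below epiblast (6.13 to 7.91). Mesoderm exceeded epiblast 1.95-fold (1.85 to 2.06), just under the Fold Change criterion. *Zeb2* was the higher of the 2 in each library per length, by 9.35-fold in epiblast (7.86 to 11.2), 4.46-fold in endoderm (3.19 to 6.38) and 1.60-fold in mesoderm (1.502 to 1.70). Exons of both genes overlap genes on the other strand, *Gm10125* for *Zeb1* and *Gm27761* and *Zeb2os* for *Zeb2*, and use of the strand in counting was not stated, so reads of these partners could be included. Exons of *Zeb2* also overlap the microRNA gene *Mir5129* on the same strand, so these reads cannot be told apart under any strand setting.

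Summed over the 5 factors the RPKM was highest in mesoderm (150), lower in epiblast (33.7) and lowest in endoderm (11.8). *Snai1* made up 44.8% of the sum in mesoderm and 73.7% in epiblast. *Twist1* made up 35.4% in mesoderm, 47.0% in endoderm and 7.003% in epiblast. *Zeb2* had its largest share in epiblast (15.2%, against 6.66% in mesoderm), and *Zeb1* made up 4.17% in mesoderm, 1.63% in epiblast and 1.40% in endoderm. The epiblast library therefore held *Snai1* and *Zeb2* with little *Twist1*, *Snai2* or *Zeb1*, whereas mesoderm held all 5.

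**Figure D4:**
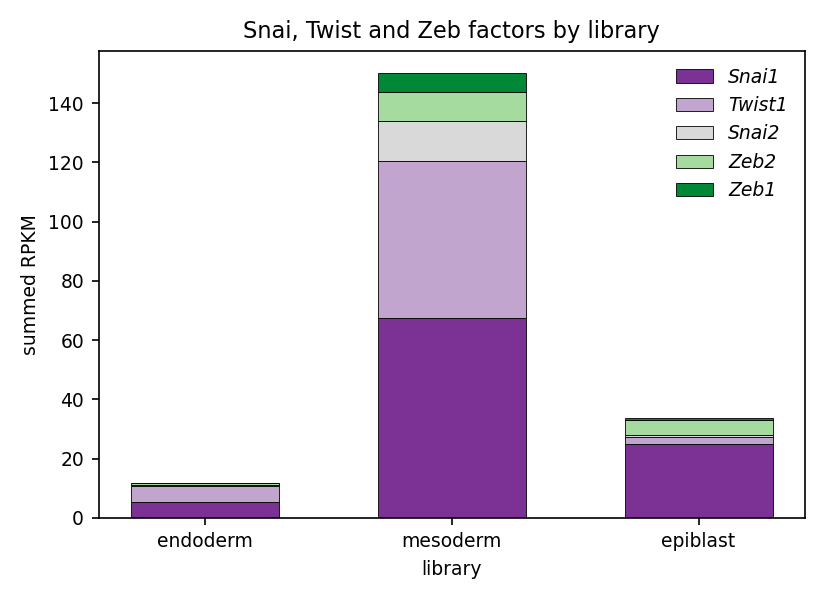
Stacked bars of the RPKM of *Snai1*, *Twist1*, *Snai2*, *Zeb2* and *Zeb1* in the 3 libraries, on a linear axis from 0. The mesoderm bar reaches 150, the epiblast bar 33.7 and the endoderm bar 11.8, and *Snai1* fills most of the epiblast bar.

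The genes with the most similar pattern were sought by the Euclidean distance between the shares of RPKM in the 3 libraries, over 9134 genes with RPKM>5 in any library. With 3 libraries a short distance is a description and says nothing of shared control. *Epcam* was the nearest gene to *Cdh1* (distance 0.0222), followed by *Mapk13* and the epithelial splicing regulator *Esrp1*. For *Epcam* the nearest were *Mapk13*, *Chchd10* and *Esrp1*, with *Cdh1* in place 4. *Cdh11* was nearest to *Mesp1* (distance 0.0036), a factor of nascent mesoderm, then *6230427J02Rik* and *Fgf3*. *Snai1* was nearest to the Wnt agonist *Rspo3*, the Nodal antagonist *Lefty2* and *Odz4*, and *Snai2* to the smooth muscle actin gene *Acta2*, *Foxf1a* and *Gucy1b3*. *Cdh2* was nearest to *Bmper*, *Klhl6* and *Wnt5a*, and *Vim* to *Dlc1*, *C530008M17Rik* and *Flnc*. *Hapln1* and *Daam2* were among the nearest to *Twist1*. *Zeb1* was nearest to *Pcp4*, *Bmp4* and *Lama4*, and *Zeb2* to *Cox4i2*, *Ndufa4l2* and *Pdlim4*.

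The wider pathway was described with 9 lists of genes with known roles around the 10. Where 3 values are given for a gene they are its RPKM in endoderm, mesoderm and epiblast, in that order. Of 30 epithelial regulators and effectors, 23 reached RPKM>5 in endoderm or mesoderm and 20 were called, all higher in endoderm, where 14.4% of all genes were. Between mesoderm and epiblast 11 of 18 were called, all higher in epiblast (all genes 5.02%), and between endoderm and epiblast 13 of 23, all higher in endoderm (15.7%). The median log2 ratio was 3.34 for endoderm over mesoderm, where all genes had -0.10, and -1.69 for mesoderm over epiblast, where all genes had 0.02. *Crb3*, an apical polarity gene, had an RPKM of 49.6, 0.380 and 15.3, which is 131-fold and 40.4-fold above mesoderm. *Rab25*, a small GTPase of epithelial recycling, had 19.9, 1.06 and 33.9 and was higher in epiblast than in mesoderm by 31.9-fold. *Esrp1* had 29.1, 1.86 and 26.3, close to the shape of *Cdh1*. The membrane protease *Prss8* (90.8, 2.42 and 13.7) and the protease inhibitor *Spint2* (114, 10.7 and 64.6) were also lowest in mesoderm. *Rbm47* was high in endoderm alone (22.2, against 0.392 and 1.03).

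Of 22 mesenchymal effectors, 13 reached RPKM>5 in endoderm or mesoderm and 9 were called, all higher in mesoderm, against 8.56% of all genes in that direction. Between mesoderm and epiblast 13 of 15 were called, 11 higher in mesoderm (all genes 5.3%). The 2 higher in epiblast were *Thy1*, a surface glycoprotein, and *Cnn1*, an actin-binding calponin. Endoderm and epiblast gave 6 of 9 called, 3 in each direction (all genes 24.6%). Median log2 ratios were -2.46 for endoderm over mesoderm, 1.67 for mesoderm over epiblast and 0.20 for endoderm over epiblast, where all genes had -0.10, 0.02 and -0.08. *Col1a1*, a fibrillar collagen gene, had 0.0765, 9.51 and 1.38. *Acta2* had 0.148, 12.0 and 0.776, and the receptor gene *Pdgfra* had 11.9, 65.3 and 8.98. *Fn1*, the fibronectin gene, was the most abundant of the list with 181, 337 and 60.9, and it was called against epiblast in both other layers but not between endoderm and mesoderm. *Sparc* came next (165, 95.8 and 49.6). It was highest in endoderm, as was *Itga5* (29.0, 22.5 and 10.5), and neither was called between endoderm and mesoderm. Of the 21 genes with reads, 3 were highest in endoderm, 15 in mesoderm and 3 in epiblast.

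**Figure D5:**
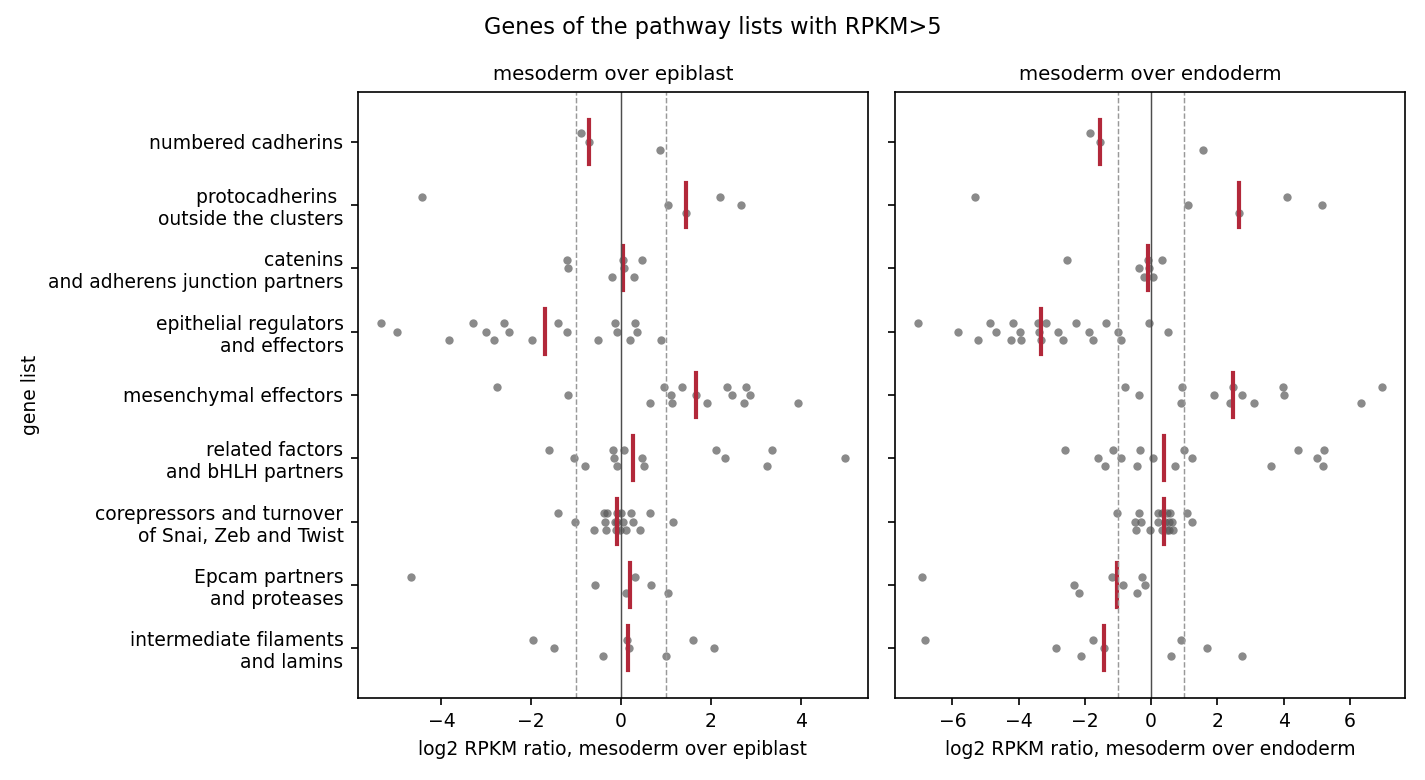
Log2 RPKM ratio of mesoderm over epiblast (left) and of mesoderm over endoderm (right) for the genes of the 9 lists with RPKM>5 in either library of the pair, 1 point per gene, with the median of each list as a red bar and dashed lines at Fold Change 2. The epithelial list lies mostly left of 0 and the mesenchymal effectors mostly right of it, while the catenins and corepressors cluster near 0.

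Of 10 catenins and adherens junction partners, which link cadherins to the cytoskeleton, 7 reached RPKM>5 in each pair. Endoderm and mesoderm gave 1 call of 7 (all genes 23%), endoderm and epiblast gave 1 (24.6%), and mesoderm and epiblast gave 2 (10.3%). *Jup*, encoding plakoglobin, accounted for a call in each pair (RPKM 38.9, 6.75 and 15.2), and *Arvcf* was higher in epiblast than in mesoderm (12.2 against 5.34). *Ctnnb1*, encoding beta-catenin, had 207, 262 and 300, and *Ctnna1*, encoding alpha-catenin, had 156, 133 and 129, with no call in any pair. Of the 20 other numbered cadherins 17 had reads. *Cdh3*, the P-cadherin gene, and *Cdh6* were higher in endoderm than in mesoderm (13.3 against 4.57, and 7.70 against 2.13). *Cdh4* was higher in mesoderm (5.66 against 1.92). In that pair 3 of 3 with RPKM>5 were called (all genes 23%). Between endoderm and epiblast 1 of 3 was called, *Cdh6* (24.6%), and between mesoderm and epiblast 0 of 3 (10.3%).

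Among 12 protocadherins outside the clusters, 5 of 5 with RPKM>5 were called both between endoderm and mesoderm and between mesoderm and epiblast, and 1 of 2 between endoderm and epiblast (all genes 23%, 10.3% and 24.6%). *Pcdh1* resembled *Cdh1*, with 55.7, 1.39 and 29.8. The other 4 were higher in mesoderm, among them *Pcdh19* (0.657, 23.4 and 3.67) and *Pcdh8* (0.780, 13.4 and 2.90), a gene of paraxial mesoderm.

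Corepressors and turnover factors of the Snail, Zeb and Twist proteins were expressed in all layers, with all 20 genes above RPKM 5 in at least 1 library. Of these, 3 of 20 were called between endoderm and mesoderm (all genes 23%), 2 of 19 between endoderm and epiblast (24.6%) and 3 of 20 between mesoderm and epiblast (10.3%). *Hdac1* (120, 118 and 179) and *Hdac2* (79.4, 99.8 and 101), encoding histone deacetylases, were the most abundant, and neither was called. *Ctbp2*, a corepressor that Zeb proteins recruit, was higher in epiblast (56.4) than in mesoderm (27.9) and endoderm (17.6). Of 23 related factors and bHLH partners, 10 of 16 were called between endoderm and mesoderm (4 higher in endoderm and 6 in mesoderm). Between endoderm and epiblast 6 of 12 were called (3 in each direction), and between mesoderm and epiblast 7 of 14 (5 higher in mesoderm), beside the same shares of all genes (23%, 24.6% and 10.3%). The mesodermal forkhead gene *Foxc2* had 1.74, 55.5 and 1.76, and *Prrx2* had 0.710, 15.2 and 1.59. *T*, the streak factor Brachyury, was highest in epiblast (93.7, 74.8 and 229). *Id2*, which encodes an inhibitor of bHLH factors, was higher in endoderm (66.8, against 22.1 and 24.5), whereas *Id3* was at 121, 127 and 122 with no call.

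Of 10 partners and proteases of Epcam, 4 of 8 were called between endoderm and mesoderm and 4 of 8 between endoderm and epiblast, all higher in endoderm, and 2 of 6 between mesoderm and epiblast, 1 in each direction. Over all genes, calls higher in endoderm made up 14.4% (endoderm against mesoderm) and 15.7% (endoderm against epiblast), and 10.3% were called between mesoderm and epiblast. *Cldn7*, a claudin that binds Epcam, had an RPKM of 107, 0.878 and 22.3, which is 122-fold below endoderm and 25.4-fold below epiblast in mesoderm. *Adam10*, a protease that cleaves surface proteins, had 30.8, 17.1 and 8.33. Among 16 intermediate filaments and lamins, 7 of 9 were called between endoderm and mesoderm (5 higher in endoderm, all genes 23%), 8 of 10 between endoderm and epiblast (5 higher in endoderm, all genes 24.6%) and 4 of 8 between mesoderm and epiblast (2 in each direction, all genes 10.3%). The simple epithelial keratins *Krt8* (522, 194 and 46.0) and *Krt18* (541, 161 and 52.7) were higher in mesoderm than in epiblast, unlike *Cdh1* and *Epcam*. *Krt7* (12.0, 0.107 and 2.50) was highest in endoderm, and *Nes*, the nestin gene of neural progenitors, was higher in mesoderm and epiblast than in endoderm (1.95, 12.9 and 17.2).

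Markers of other tissues were also checked. Trophoblast markers summed to RPKM 27.4, 7.56 and 2.65 in endoderm, mesoderm and epiblast, with *Tpbpa* and *Prl3d1* listed in no library. The endoderm sum was mainly *Plac1* (19.9) and *Esx1* (7.11). *Elf5* (0.108, 0.133 and 0.328) and *Ascl2* (0.268, 1.12 and 1.63) were instead highest in epiblast. Blood and endothelium markers summed to 3.87, 21.1 and 1.195, mainly *Tal1* in mesoderm (13.3), with *Hba-x* and *Hbb-y* listed in none. Of these markers *Gata1* was highest in endoderm (3.27, against 2.49 in mesoderm and 0.661 in epiblast). Decidua markers summed to 0.912, 27.8 and 2.24, of which *Hand2*, also a gene of embryonic mesoderm, gave 26.2 in mesoderm, and *Prl8a2* and *Prl3c1* were listed in none. The 8 genes highest in mesoderm, namely *Cdh2*, *Cdh11*, *Vim*, *Snai1*, *Snai2*, *Twist1*, *Zeb1* and *Zeb2*, shared that library with the blood and endothelium sum. The part of blood and endothelial cells in the levels of these genes was not tested.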

How the data were processed

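Endoderm, mesoderm and epiblast of E7.5 embryos were sequenced with paired-end reads, 1 library per germ layer. After trimming of adapters and poor reads the authors deposited, for each gene with a read, its length, its uniquely mapped read count, the percent of its length under reads and its RPKM, which was used as deposited. TopHat and GRCm38 are named for the splicing analysis, and the aligner, annotation and counter of the gene tables, and whether they used the strand, are not given in the sources used here. Unique mapping leaves out part of the reads shared by near-identical genes. A gene without a row was taken as 0 reads, which allows up to 3.

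The 10 genes and all lists were chosen with earlier results of these data known. Calls used the criteria stated in the report, with a two-sided exact test over all genes with a read in either library of a pair. Single libraries give no estimate of dispersion, which a quasi-likelihood fit needs. As an alternative, a biological coefficient of variation (BCV) of 0.2 or 0.4 was assumed in the exact test of edgeR. Folds are ratios of the deposited RPKM with exact conditional binomial (Clopper-Pearson) intervals, and RPKM intervals are exact Poisson, all at 95%. A fold against 3 reads or fewer was taken against 3 reads as a lower bound. Genes named from a list were up to 3 called genes with the largest fold in each direction of each pair and the 2 genes with the highest RPKM, plus the 3 nearest genes of each of the 10 and the markers. 1 of the nearest genes is not reported here. *Ajuba* and *Foxf1* were matched as *Jub* and *Foxf1a*. Gene positions came from GENCODE M21 (GRCm38), since the tables hold none. The scripts were tested on simulated data. Tests ran in edgeR 4.0.16 under R 4.3.3 and in SciPy 1.17.1 with numpy 2.4.6 and pandas 2.3.3 under Python 3.11.15, and plots were drawn with matplotlib 3.10.9.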

Additional observations from a re-analysis of the deposited data

How the results depend on the processing

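The calls were repeated under 15 alternatives. No paired analysis was possible because each germ layer has 1 library, and none could be left out for the same reason. Of the 10 genes, the number called between endoderm and mesoderm stayed from 9 to 10 except with an assumed BCV of 0.4 (5). Between mesoderm and epiblast it was 2 at that BCV, 7 with an assumed BCV of 0.2, 6 with Fold Change>4 and 8 with RPKM>10. The genes lost at a BCV of 0.2 were *Vim* and *Snai1*. Between endoderm and epiblast it was 2 with RPKM>10, 3 with Fold Change>4, 3 with an assumed BCV of 0.2 and 0 with 0.4. Which variation between embryos applies cannot be read from single libraries. Of 180 log2 ratios of the 10 genes under other pseudocounts and scalings, 174 kept their direction and side of the criteria. The log2 ratio of *Cdh2* for endoderm over epiblast turned to 0.0407 with the same RPKM total, to 0.0596 with the median of ratios and to 0.0596 with TMM, from -0.05. *Twist1* between endoderm and epiblast fell below Fold Change 2 with a pseudocount of 1 (log2 0.97). With the same RPKM total, *Zeb2* lost its call between endoderm and epiblast, although its log2 ratio of -2.71 stayed beyond Fold Change 2. Its deposited RPKM in epiblast was 5.13, close to the minimum of 5. Under the same scaling *Zeb2* gained a call between mesoderm and epiblast (log2 1.02). Scaling by the median of ratios moved all log2 ratios of endoderm over mesoderm by 0.11 and over epiblast by 0.11, and the upper quartile moved the latter by -0.13. Of 405 counts of called list genes, 305 stayed within 1.5 times, and 54 of the other 100 moved with the RPKM or Fold Change threshold and 39 with the assumed BCV. At a BCV of 0.4 the epithelial list kept 9 of 20 calls between endoderm and mesoderm and 1 of 13 between endoderm and epiblast. The mesenchymal list kept 4 of 9 and 1 of 6 in these pairs.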
